A study of Mus musculus with 14 samples.

Results

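The LPS response of microglia was compared between mice with and without a Rheb deletion, gene by gene, as an interaction: the LPS minus PBS difference in KO less the same difference in WT, on log2 of transcripts per 1000000 (TPM) plus 1. A value below 0 means that KO libraries rose less or fell more under LPS than WT libraries. All 14 libraries in the table entered, and of its 41739 genes, 18724 were at 1 TPM or above in 3 or more libraries. The comparison covers the 18105 of these that lie on autosomes. The WT groups are Rheb F/F mice, which carry floxed Rheb alleles and no Cre. The KO groups are Rheb F/F mice with Tmem119-cre ER, a Cre that tamoxifen switches on and that the microglial gene Tmem119 drives, so by the labels every KO library also carries Cre and the Tmem119 allele and no WT library does. All mice had tamoxifen and then, at 8 weeks of age, 4 days of daily injection into the abdomen, and cells were taken from brain with magnetic beads. There were 3 WT PBS libraries (WT_PBS_904, WT_PBS_913 and WT_PBS_914, numbered as in the labels), 3 KO PBS libraries (KO_PBS_911, KO_PBS_912 and KO_PBS_915), 4 WT LPS libraries (1 to 4) and 4 KO LPS libraries (1 to 4), with LPS at 1.0 mg/kg. Values by library follow the order of these numbers, and series of 4 means give WT before KO, under PBS first and then under LPS.

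Rheb is a small GTPase that, in its GTP-bound form, switches on the kinase complex mTORC1 at the lysosome, and the TSC complex turns Rheb off. Microglia, the resident macrophages of the brain, sense LPS, a component of the bacterial outer membrane, through Tlr4 with its partners Cd14 and Ly96. From there, one arm through Myd88 leads to NF-kB and to cytokines and chemokines, and another through Ticam1 leads to type I interferon and to interferon-stimulated genes. Microglia exposed to LPS lower many of the genes that mark their resting state.

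Several features of the libraries touch every value of this contrast. The design text gives female mice, but the 6 PBS libraries carried Y-linked Ddx3y at 111 to 146 TPM and next to no Xist, while the 8 LPS libraries carried Xist at 255 to 574 TPM and Ddx3y at 0.2697 TPM or less. Sex therefore runs together with treatment in both genotypes, and a genotype by LPS interaction cannot be told apart from a genotype by sex interaction. The genotype differences under PBS and under LPS each lie within libraries of the same transcript pattern. Pituitary transcripts made up 9.12% of the TPM total in WT_PBS_914 and 3.301% in KO_LPS_3, against at most 0.02699% elsewhere. Both of these pituitary-rich libraries enter the interaction with a plus sign, so the main values are also given without them; where 2 values of an interaction stand in parentheses or follow each other with a semicolon, the second is the one without these libraries. The microglial marker list summed to 33682 to 43716 TPM in WT PBS, 38254 to 41336 TPM in KO PBS, 26779 to 31124 TPM in WT LPS and 19498 to 26407 TPM in KO LPS libraries, and all 12 of its members were above 1 TPM. The short RNA Gm23935 stood at 566 to 2477 TPM under PBS and at 40440.4 to 153781 TPM under LPS, which lowers the TPM of other genes in the LPS libraries. Reads recovered from the table, in units of 1000000 (M), were fewest in KO_LPS_4 (7.998 M) and most in WT_LPS_1 (32.3 M). In bulk RNA, fewer cells of a type and less RNA per cell cannot be told apart.

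No gene passed the test of the interaction at an adjusted p under 0.05 (0 of 18105, 0.0%, limma). The smallest adjusted p was 0.0704, for Hcar2. At an unadjusted p under 0.05 there were 1726 genes (9.53%), of which 1062 (5.87%) had values above 0 and 664 (3.67%) below 0. The median over all genes was 0.05, and 55.7% of genes lay above 0 (47.8% with median-of-ratios scaling and 49.9% with voom). Counts of list members by sign below stand beside 55.7% of all genes above 0 and 44.3% below 0. Without the pituitary-rich libraries these shares were 57.0% and 43.0%. Without the pituitary-rich libraries 4 genes passed (Hcar2 and the gene models Gm22858, Gm24465 and Gm44450, the last 3 named here after their values were seen), with 1255 of 17648 at an unadjusted p under 0.05 (7.11%); voom on the recovered reads gave 0 and 2361. What follows is therefore a description of values and their errors, with calls only for the genotype differences inside each treatment.

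LPS-responsive genes were those called in the mean of both genotypes, with a change of at least 1 on the log2 scale. Of 761 genes raised by LPS, 329 (43.2%) had a smaller response in KO, beside 44.3% of all genes below 0. Of 1036 genes lowered by LPS, 800 (77.2%) had a smaller response in KO, beside 55.7% of all genes above 0. The background of this average LPS effect was 9785 called genes (54.0%), of which 2010 were higher and 7775 lower. With median-of-ratios scaling the split was 3766 higher and 3530 lower, so the share of falls depends on scaling, and the classes held 1094 raised and 444 lowered genes, or 1436 and 889 with voom. With median-of-ratios scaling the shares of smaller responses became 50.1% and 76.4%, beside 52.2% of all genes below 0 and 47.8% above. With voom they were 43.3% and 81.3%, beside 50.1% and 49.9%. Among the 329 smaller rises, 135 were pre-raised, meaning that KO exceeded WT under PBS by more than the genotypes differed under LPS, and in 194 the larger difference lay under LPS. Among the 800 smaller falls, 346 were already lower in KO under PBS in this sense. That last count became 696 of 989 without the pituitary-rich libraries and 206 of 723 with voom, so this split depends on the setting. The median interaction was 0.08 among the raised and 0.47 among the lowered genes.

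The genotype differences under PBS and under LPS come from different libraries, and many of them matched. KO and WT differed in 198 genes under PBS (1.09%), 155 higher and 43 lower in KO, and in 87 under LPS (0.481%), 46 higher and 41 lower. Of the 155 genes higher under PBS, 144 were also above 0 under LPS, 92.9% beside 62.7% of all genes, and 20 were called in both (12.9% of the PBS list and 43.5% of the LPS list). Their median difference was 0.69 under PBS and 0.27 under LPS, where the median of all genes was 0.07; since the genes were chosen on the PBS values, some shrinkage comes with the choice. Of the 43 genes lower under PBS, 36 were also below 0 under LPS, 83.7% beside 37.2% of all genes. In both treatments 7 of the 43 were called (16.3%), among them Tmem119, Cd22 and H2-Ob. Read the other way, all 46 genes higher under LPS lay above 0 under PBS, beside 49.4% of all genes. Of the 41 genes lower under LPS, 33 lay below 0 under PBS, 80.5% beside 49.9% of all genes. These counts rest on few libraries: without the pituitary-rich libraries the calls fell to 17 under PBS and 10 under LPS, and leaving out KO_PBS_912 alone left 4 under PBS.

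**Figure D1:**
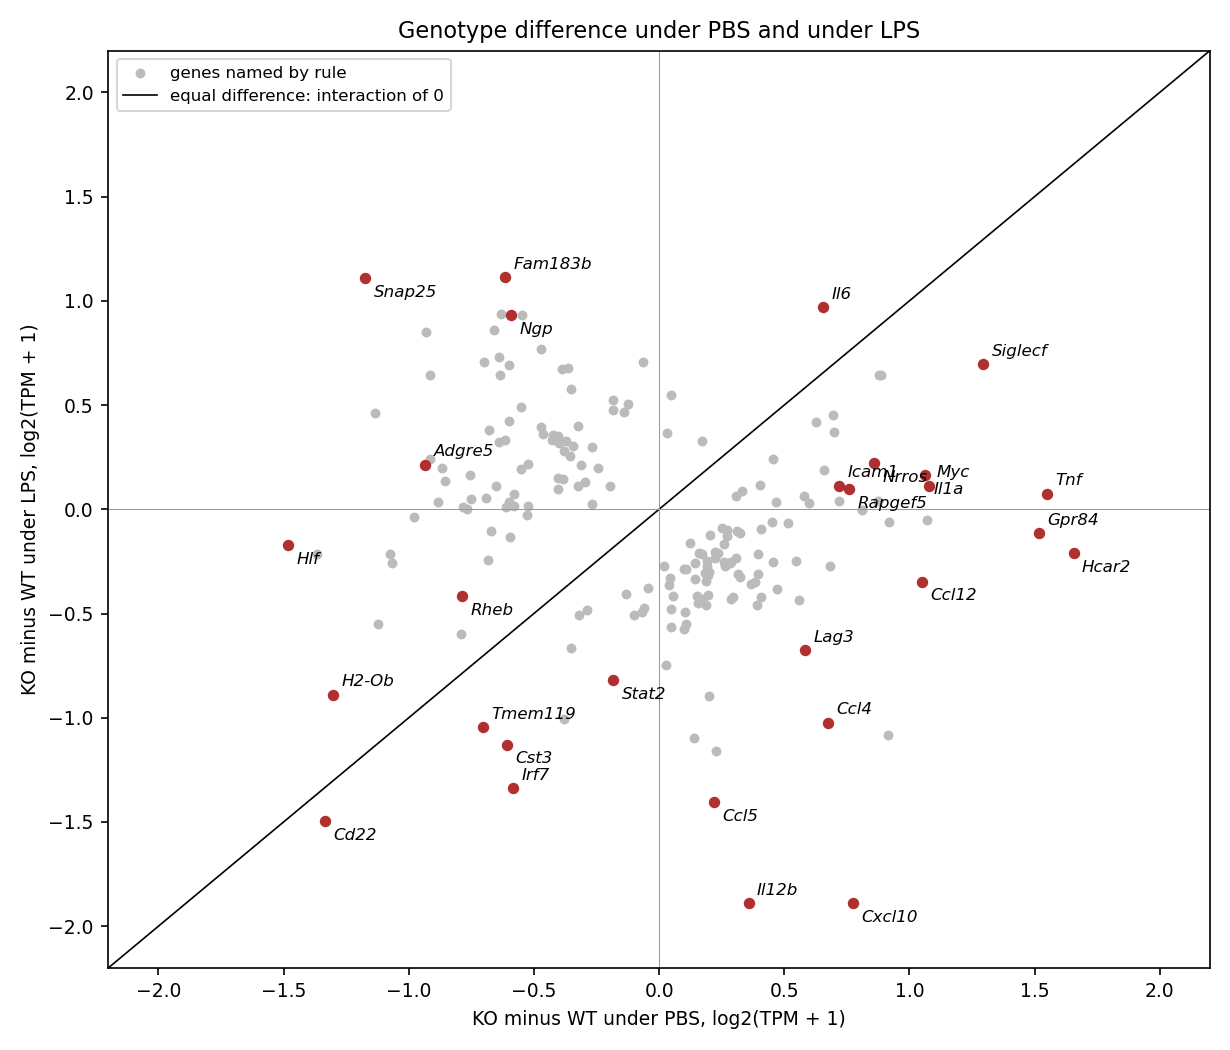
KO minus WT under PBS (horizontal axis) against KO minus WT under LPS (vertical axis), in log2(TPM + 1), for the genes named by rule that lie within the plotted range, with labelled genes in red. The diagonal marks an interaction of 0; Hcar2 and Gpr84 sit far right near a vertical value of 0 and Cxcl10 and Il12b far below it, while Cd22 lies close to the diagonal.

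Hcar2, Gpr84 and Il1a were higher in KO under PBS and overlapped between genotypes under LPS. Hcar2 and Gpr84 belong to a list of 11 measured metabolite receptors that did not share this direction: its median KO minus WT difference under PBS was -0.14. Hcar2, the receptor for niacin and the ketone body beta-hydroxybutyrate, stood at 3.42, 5.05 and 6.0 TPM in WT PBS and at 15.3, 22.02 and 14.6 TPM in KO PBS. Under LPS it stood at 266, 247, 282 and 214 TPM in WT and 250.3, 233, 199.96 and 187 TPM in KO. The PBS groups did not overlap and the LPS groups did. KO exceeded WT by 1.66 ± 0.19 (SE) under PBS, which passed the test (adjusted p = 0.00361, limma; called in 28 of 29 alternatives), and differed by -0.21 ± 0.16 under LPS (adjusted p = 0.656). The interaction was -1.87 ± 0.25 (adjusted p = 0.0704), -1.98 without the pituitary-rich libraries, where it was 1 of the 4 genes that passed (adjusted p = 0.0497). Over 29 alternatives it ranged from -2.09 to -1.39, and its adjusted p from 0.00697 to 0.238, with 6 below 0.05.

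Gpr84, which binds fatty acids of medium chain length and sits on activated myeloid cells, showed the same order of groups. It stood at 46.7, 40.9 and 39.5 TPM in WT PBS, 120.3, 113 and 137 TPM in KO PBS, 155, 156, 353 and 184 TPM in WT LPS and 189.8, 249, 169 and 143 TPM in KO LPS libraries. Only the PBS groups were apart. The PBS difference was 1.52 ± 0.27 (adjusted p = 0.0265; called in 19 of 29 alternatives, and 0.118 without the pituitary-rich libraries), and the interaction -1.63 ± 0.35 (adjusted p = 0.2997), -1.54 without the pituitary-rich libraries. WT_LPS_3 was the highest Gpr84 library, and without it the interaction was -1.36. Il1a, which encodes the alarm cytokine IL-1 alpha, stood at 62.7, 51.7 and 55.4 TPM in WT PBS and 110.1, 123 and 125 TPM in KO PBS, again without overlap. Under LPS it stood at 233, 249, 311 and 276 TPM in WT and 458, 276, 246 and 252 TPM in KO, with overlap. Its PBS difference was 1.06 ± 0.19 (adjusted p = 0.0312; 0.1004 without the pituitary-rich libraries), and its interaction -0.90 ± 0.26 (adjusted p = 0.408), -0.80 without the pituitary-rich libraries.

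**Figure D2:**
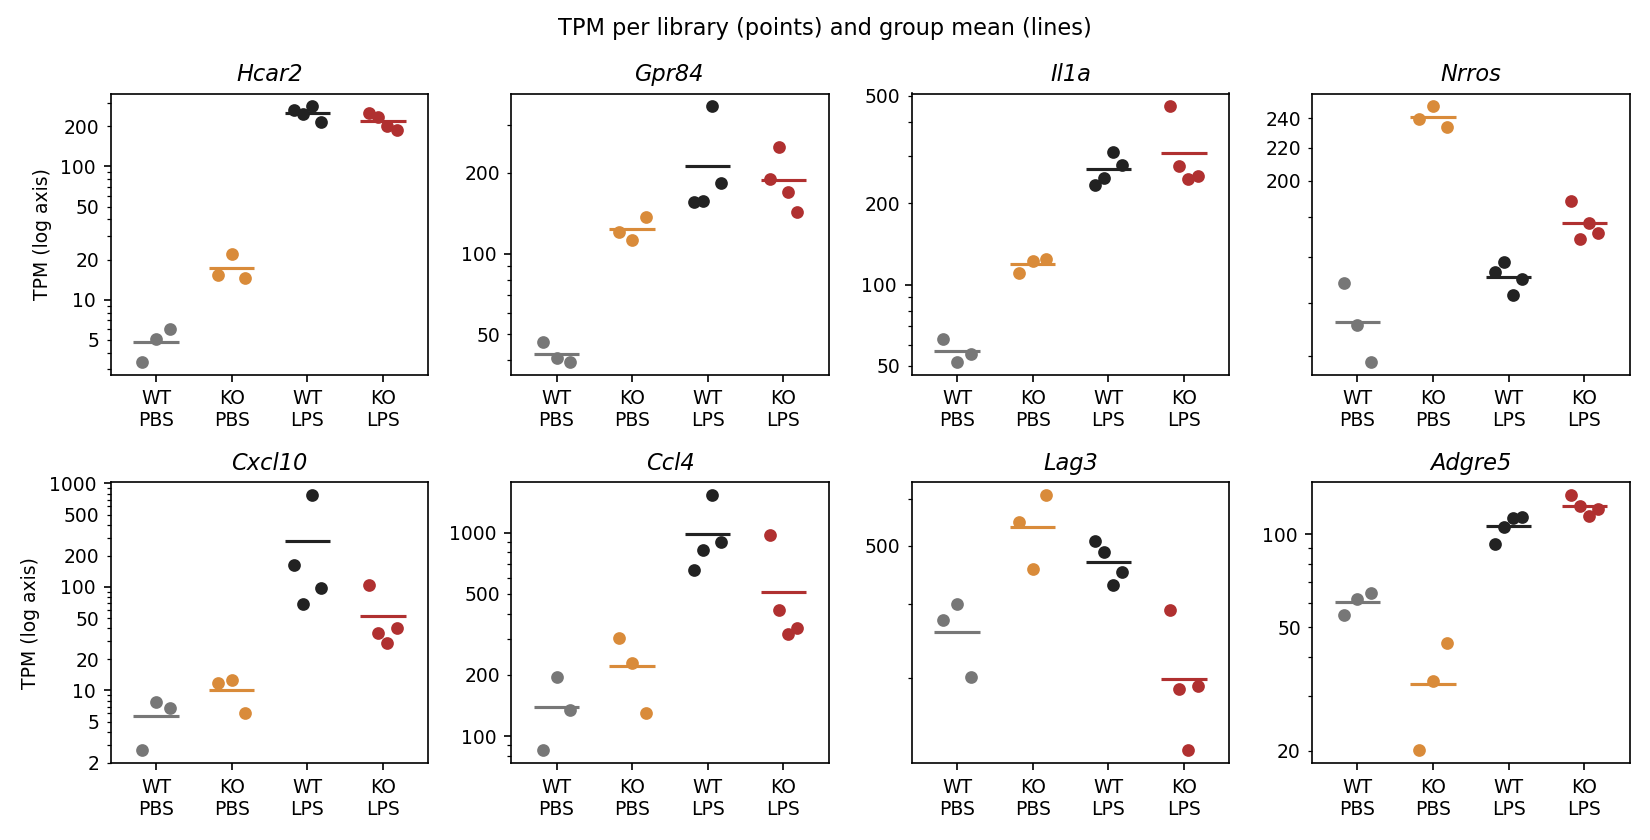
TPM of 8 genes in each library (points) with the mean of each group (lines), on log axes that differ between panels. Hcar2, Gpr84 and Il1a are higher in KO than in WT under PBS and overlap under LPS; Cxcl10 has a single WT LPS library at 778 TPM; the mean of Lag3 is highest in KO PBS and lowest in KO LPS libraries, and Adgre5 is lower in KO under PBS and as high or higher under LPS.

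Further genes of activation had higher values in KO under PBS as well. Icam1, an adhesion molecule that leukocytes bind, averaged 57.4 ± 3.82 TPM (SD, n = 3) in the WT and 94.9 ± 4.42 (n = 3) in the KO group under PBS, a called difference of 0.72, and 194 ± 16.9 (n = 4) and 211 ± 31.5 (n = 4) under LPS. Its interaction was -0.60 ± 0.15 (-0.50 without the pituitary-rich libraries). Cd83, a surface marker of activated antigen-presenting cells, was called higher in KO under PBS by 0.88 and differed by 0.04 under LPS, with an interaction of -0.83 ± 0.24 (-0.58). Myc, the growth-promoting transcription factor, was called higher by 1.08 under PBS and differed by 0.11 under LPS, with an interaction of -0.96 ± 0.24 (-0.98). The calls of Gpr84, Il1a, Icam1, Cd83 and Myc under PBS were lost without the pituitary-rich libraries, with adjusted p from 0.0756 to 0.118, while the direction held in 29 of 29 alternatives for each. Cst7, a cystatin of disease-associated microglia, had PBS libraries at 17.4, 15.9 and 19.1 TPM in WT and 40.7, 39.6 and 32.98 TPM in KO, and LPS means of 63.2 and 61.98 TPM (interaction -1.12 ± 0.33; -1.05). Its PBS groups did not overlap, but the difference did not pass the test (adjusted p = 0.0601). Tnf, the tumour necrosis factor gene, stood at 11.5, 17.2 and 15.2 TPM in WT PBS and at 88.02, 38.9 and 25.1 TPM in KO PBS, a wide spread within KO. Under LPS its means were 156 and 152 TPM, and the interaction was -1.47 ± 0.77 (adjusted p = 0.565). Csf1, the growth factor of microglia, had an interaction of -0.68 ± 0.28 with means of 18.4, 30.8, 62.5 and 66.03 TPM in the 4 groups.

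Genes that tissue handling can induce are part of this group. Over the 30 genes of the immediate early and dissociation list, 23 interactions lay below 0, with a median of -0.33 (-0.18 without the pituitary-rich libraries, and -0.55 to -0.13 with any 1 library left out, the ends without KO_LPS_1 and KO_PBS_911). The list's median KO minus WT difference was 0.36 under PBS and 0.02 under LPS. Ier5, an immediate early gene, averaged 317 TPM in WT PBS and 599.6 TPM in KO PBS, and 368 and 359 TPM under LPS (interaction -0.98 ± 0.29). Nr4a1, an orphan nuclear receptor that is also induced early, went the other way, at 60.8, 28.9, 182 and 175 TPM (interaction 0.94 ± 0.38). The part of handling in the PBS differences was not tested.

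For the chemokines and interferon-stimulated genes named in this paragraph and the next 2, the KO mean lay below the WT mean under LPS. No gene named there passed the test under LPS. For each chemokine named in this paragraph, the KO mean also lay above the WT mean under PBS. Cxcl10, a chemokine that draws T cells and that interferon induces, stood at 2.64, 7.804 and 6.74 TPM in WT PBS, 11.8, 12.7 and 6.06 TPM in KO PBS, 164, 68.99, 778 and 97.8 TPM in WT LPS and 104, 36.1, 28.5 and 40.4 TPM in KO LPS libraries. WT_LPS_3 stood far above the other LPS libraries and KO_LPS_1 above the other KO libraries, and the LPS groups overlapped. The interaction was -2.66 ± 0.97 (adjusted p = 0.473), -2.59 without the pituitary-rich libraries and -1.94 without WT_LPS_3. Ccl5, a chemokine for T cells and monocytes, stood at 127, 106, 348 and 73.3 TPM in WT LPS and 64.8, 65.9, 37.9 and 41.1 TPM in KO LPS, with no overlap. Its PBS means were 11.05 and 13.01 TPM, and its interaction was -1.62 ± 0.56 (adjusted p = 0.462; -1.17 without WT_LPS_3). Ccl4, a chemokine for monocytes and T cells, stood at 658, 823, 1534 and 902 TPM in WT LPS and 972, 415, 318 and 339 TPM in KO LPS, where KO_LPS_1 lay among the WT libraries and the other KO libraries below all of them. Ccl4 averaged 138 and 221 TPM under PBS, and the interaction was -1.70 ± 0.60 (adjusted p = 0.463; -1.46 without WT_LPS_3). Il12b, the shared chain of IL-12 and IL-23, was at 0.731 TPM or less under PBS and at 16.2, 5.24, 139.9 and 14.7 TPM in WT LPS and 27.1, 4.81, 2.404 and 1.27 TPM in KO LPS. Its interaction of -2.25 ± 1.31 became -1.35 without WT_LPS_3. Ccl12, a monocyte chemokine, was higher in every KO PBS than in any WT PBS library (331, 281 and 245 against 175, 157 and 91.9 TPM, not called). Under LPS, KO averaged 1735 against 2239 TPM in WT, with an interaction of -1.40 ± 0.44. Ccl2, the chief monocyte chemokine, averaged 47.4 and 83.6 TPM under PBS and 424 and 407 TPM under LPS (interaction -0.82 ± 0.50). Its WT LPS mean rested on WT_LPS_3 at 749 TPM, with the next WT LPS library at 339 TPM. Over all 22 chemokines measured, however, 12 lay below 0 and the median was -0.10, which turned to 0.07 without WT_LPS_3.

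The interferon response list moved in 1 direction more evenly. Of its 69 measured members, 63 had an interaction below 0, beside 44.3% of all genes, and the median was -0.41 (-0.38 without the pituitary-rich libraries). Only 3 of the 69 were below 0 at an unadjusted p under 0.05, beside 3.67% of all genes. Without the pituitary-rich libraries 1 of 69 was, beside 2.32%. None passed the test. Its members' median KO minus WT difference was -0.23 under PBS and -0.61 under LPS. Measured against the WT PBS mean of each gene, the list median was -0.25, -0.15 and -0.19 in the KO PBS libraries, 0.95, 0.98, 1.99 and 0.77 in the WT LPS libraries and 1.04, 0.21, 0.45 and 0.38 in the KO LPS libraries. WT_LPS_3 was the highest library, KO_LPS_1 lay within the range of WT LPS, and the other KO LPS libraries lay below all WT LPS libraries. Without WT_LPS_3 the list's median interaction was -0.15.

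For Phf11b, Stat2 and Irf7, WT_LPS_3 was the highest LPS library and KO_LPS_1 the highest KO LPS library. KO_LPS_1 lay within the WT LPS range for Phf11b and below it for Stat2 and Irf7. Phf11b, an interferon-induced gene, stood at 55.1, 59.5, 215 and 45.1 TPM in WT LPS and 46.4, 34.1, 30.2 and 30.2 TPM in KO LPS (interaction -1.24 ± 0.57, -0.74 without WT_LPS_3). Stat2, a subunit of the factor that interferon receptors activate, stood at 65.7, 60.9, 129.9 and 65.7 TPM in WT LPS and 51.8, 36.5, 42.7 and 41.8 TPM in KO LPS, with no overlap (interaction -0.64 ± 0.30, -0.39 without WT_LPS_3). Its difference under LPS did not pass the test (adjusted p = 0.0929). Irf7, which amplifies interferon production, stood at 43.9, 42.7, 209 and 44.1 TPM in WT LPS and 40.8, 21.8, 26.8 and 16.2 TPM in KO LPS, also without overlap. Irf7 was already lower in KO under PBS in every library (10.1, 11.8 and 10.2 against 19.2, 15.9 and 14.7 TPM, not called), and its interaction of -0.75 ± 0.66 became -0.19 without WT_LPS_3. Igtp (-0.60 ± 0.28), Lgals3bp (-0.66 ± 0.26) and Ly6e (-0.41 ± 0.14) had interactions below 0 as well, without a call.

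**Figure D3:**
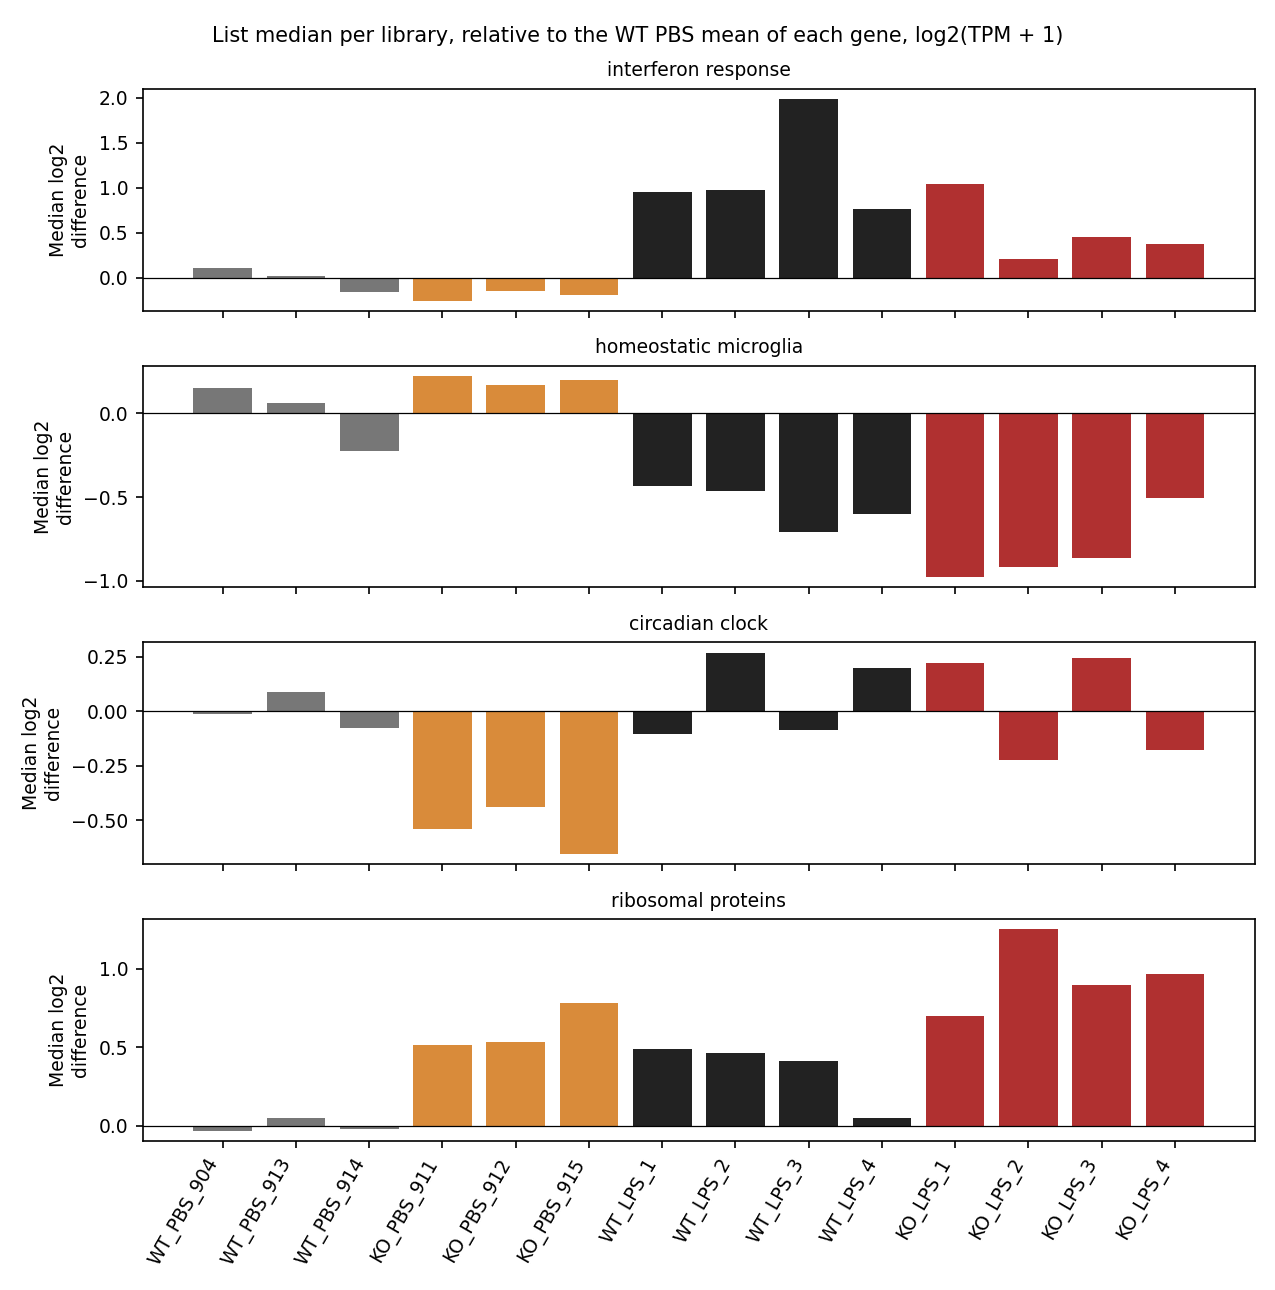
Median over list members of the log2(TPM + 1) difference from the WT PBS mean, 1 bar per library (grey WT PBS, orange KO PBS, black WT LPS, red KO LPS), for 4 lists of genes. Interferon genes peak in WT_LPS_3, homeostatic genes are above the WT PBS level in KO PBS and lowest in KO_LPS_1, 2 and 3, clock genes are low in the 3 KO PBS libraries, and ribosomal protein genes are raised in both KO groups.

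Interferon acts through a defined element, the interferon-stimulated response element, whose core was searched as GAAA, any 2 bases and GAAA again, on both strands. For this reason 3 promoters are shown, chosen among those of the named genes that hold the core. The other named genes are not shown. In the 250 bases before the RefSeq start (GRCm38.p6), 24 of 53 interferon list genes with a promoter entry held it (45.3%), beside 3.46% of 27025 genes. In the chemokine list, to which Cxcl10 belongs, 2 of 16 did (12.5%). The NF-kB letters, GGGA, any base and TTTCC, occurred in 3 of 16 chemokine and 3 of 16 cytokine promoters (18.8% each), beside 0.414% of all genes. Interferon list members with the core had a median interaction of -0.58 (n = 24) and those without it -0.31 (n = 29), as a description of letters and values. These 2 medians were not computed without WT_LPS_3, a setting in which the median of the whole list was -0.15. The core, or its reverse complement, is in capitals below, 5′ to 3′ on the strand of the gene. The 3 promoters are those of Cxcl10 (chr5:92348890-92349139, minus strand), Phf11b (chr14:59341331-59341580, minus strand) and Stat2 (chr10:128270248-128270497, plus strand).
Cxcl10: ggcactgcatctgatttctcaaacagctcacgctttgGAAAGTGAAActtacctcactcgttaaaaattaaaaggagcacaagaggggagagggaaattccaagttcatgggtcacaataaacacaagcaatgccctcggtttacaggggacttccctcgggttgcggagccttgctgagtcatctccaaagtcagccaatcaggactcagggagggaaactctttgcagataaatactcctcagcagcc
Phf11b: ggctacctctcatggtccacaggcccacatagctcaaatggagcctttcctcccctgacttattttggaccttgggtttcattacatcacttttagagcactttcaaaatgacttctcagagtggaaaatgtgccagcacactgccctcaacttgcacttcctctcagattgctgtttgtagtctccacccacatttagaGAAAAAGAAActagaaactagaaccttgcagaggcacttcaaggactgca
Stat2: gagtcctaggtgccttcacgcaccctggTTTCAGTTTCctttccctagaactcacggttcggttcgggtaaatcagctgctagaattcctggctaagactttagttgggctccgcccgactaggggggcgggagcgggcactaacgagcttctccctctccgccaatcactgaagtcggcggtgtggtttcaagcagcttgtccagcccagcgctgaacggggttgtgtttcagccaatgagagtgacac

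Upstream of these targets lie the genes of LPS sensing and of interferon receptors. In the LPS sensing list, 12 of 19 genes lay below 0 (median -0.10), and 3 were at an unadjusted p under 0.05 below 0, beside 3.67% of all genes. Cd180, a receptor that restrains Tlr4, averaged 93.96, 151, 95.8 and 77.8 TPM in the 4 groups (interaction -0.96 ± 0.26; -0.92 without the pituitary-rich libraries). Ly96, which binds LPS together with Tlr4, had an interaction of -0.37 ± 0.11, and Myd88, the adaptor below Tlr4, one of -0.50 ± 0.15. Among interferon receptor and signalling genes, 13 of 15 lay below 0 (median -0.16), but without the pituitary-rich libraries 9 of 15 did (median -0.06), and without WT_PBS_914 alone the median was -0.07. The DNA sensor Cgas had an interaction of -0.72 ± 0.20 and its partner Tmem173, which encodes STING, one of -0.54 ± 0.11. Tmem173 stood at 462, 469.7 and 427 TPM in KO PBS against 398, 351 and 368 TPM in WT PBS, and at 284, 302, 325 and 318 against 364, 384, 342 and 377 TPM under LPS: higher in every KO library under PBS and lower in every KO library under LPS, though neither difference passed the test (adjusted p = 0.115 and 0.136). The interferon gamma receptor chain Ifngr2 (-0.51 ± 0.15) and the macrophage transcription factor Irf8 (-0.46 ± 0.18) lay below 0 too. Ikbke, an LPS-induced kinase of the interferon arm, had a value above 0 (0.92 ± 0.46).

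The cytokine and NF-kB lists leaned below 0, where 44.3% of all genes lay. Of 22 cytokines, 14 lay below 0 (median -0.13, -0.04 without the pituitary-rich libraries), and of 30 NF-kB signalling and feedback genes, 21 did (median -0.14). Without WT_LPS_3 these medians were -0.0093 and -0.08. Il6, the cytokine interleukin 6, was higher in every KO library than in any WT library of the same treatment: it stood at 17.4, 12.1 and 16.4 TPM in WT PBS, 24.6, 22.6 and 26.2 TPM in KO PBS, 9.72, 9.75, 14.6 and 9.69 TPM in WT LPS and 25.3, 20.6, 20.1 and 22.8 TPM in KO LPS libraries. The PBS difference did not pass the test (adjusted p = 0.0806), the LPS difference of 0.97 ± 0.15 was called (adjusted p = 0.0175; 0.0575 without the pituitary-rich libraries) and the interaction was 0.32 ± 0.22. Il1b, strongly induced by LPS (average effect 4.53), had an interaction of -0.40 ± 0.58, less than its error. Il4ra, the receptor chain for IL-4 and IL-13, averaged 463 ± 62.7 TPM (SD, n = 4) in WT LPS and 338 ± 58.1 TPM (n = 4) in KO LPS, with PBS means of 95.4 and 125 TPM and an interaction of -0.85 ± 0.20 (adjusted p = 0.368; -0.71 without the pituitary-rich libraries). Socs3, an inhibitor of cytokine receptors, averaged 238 and 344 TPM under PBS and 1619.9 and 1203 TPM under LPS (interaction -0.99 ± 0.31). Tmem268, a transmembrane protein gene, was called lower in KO under LPS (-0.42 ± 0.07, adjusted p = 0.0273; 0.0575 without the pituitary-rich libraries), with an interaction of -0.57 ± 0.11.

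Acute-phase, scavenger and itaconate genes, among the most LPS-induced of all, leaned the other way without calls. Of 19, 15 lay above 0 (median 0.16), beside 55.7% of all genes. Without the pituitary-rich libraries 13 did (median 0.32), beside 57.0%, and with median-of-ratios scaling 13 did (median 0.08), beside 47.8%. At an unadjusted p under 0.05 (limma) 1 lay above 0, beside 5.87% of all genes, and 0 without the pituitary-rich libraries, beside 4.79%. The median was 0.084 without KO_LPS_1 and 0.55 without WT_LPS_3. Marco, a scavenger receptor for bacteria, averaged 0.559 and 0.209 TPM under PBS and 419.99 and 531 TPM under LPS in WT and KO, an interaction of 0.73 ± 0.41. Fpr2, a receptor for formylated peptides and serum amyloid A, averaged 41.9 and 20.05 TPM, then 336 and 375 TPM (interaction 1.16 ± 0.44). The serum glycoprotein genes Orm1 (0.87 ± 0.66) and Orm2 (0.92 ± 0.54) were above 0 as well. Saa3, an acute-phase apolipoprotein (interaction -0.27 ± 0.56), Lcn2, an iron-withholding protein (0.46 ± 0.58) and Acod1, the itaconate-making enzyme (-0.19 ± 0.88), had values smaller than their errors, and each changed sign in at least 1 alternative.

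The genes of resting microglia lay on the same side of 0. All 45 measured genes of the homeostatic list had an interaction below 0, with a median of -0.37, and 15 were at an unadjusted p under 0.05 beside 3.67% of all genes; none passed the test. Without the pituitary-rich libraries 40 of 45 lay below 0, with a median of -0.24 and 11 at an unadjusted p under 0.05 in that direction, beside 2.32% of all genes tested there. Their median KO minus WT difference was 0.23 under PBS and -0.19 under LPS, and the LPS response was -0.52 in WT and -0.95 in KO. Without the pituitary-rich libraries the differences were 0.12 and -0.16, and the responses -0.62 and -0.94. Relative to the WT PBS mean of each gene, the list median was 0.15, 0.07 and -0.22 in WT PBS and 0.23, 0.17 and 0.20 in KO PBS libraries. The list median relative to WT PBS stood at -0.43, -0.46, -0.71 and -0.60 in WT LPS libraries and -0.98, -0.92, -0.86 and -0.50 in KO LPS libraries, so KO_LPS_4, the shallowest library, lay among the WT libraries. The 11 tested microglial markers, some of them in the homeostatic list too, all lay below 0 as well (median -0.47, -0.42 without the pituitary-rich libraries), with the complement subunit C1qa at -0.62 ± 0.28 and Aif1, which encodes IBA1, at -0.54 ± 0.22, and the summed level of the markers was lowest in KO LPS, as given above. The part of a lower share of microglial RNA in the values of single genes was not tested.

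Nrros, which microglia need to activate the growth factor TGF-beta, had the smallest interaction p among the homeostatic genes. It stood at 149, 131 and 118 TPM in WT PBS and 239.6, 248 and 234 TPM in KO PBS, then at 153, 158, 144 and 150.1 TPM in WT LPS and 189, 169, 177 and 172 TPM in KO LPS. KO exceeded WT without overlap in both treatments, by 0.86 ± 0.08 under PBS (adjusted p = 0.00122; called in 29 of 29 alternatives) and by 0.22 ± 0.07 under LPS (adjusted p = 0.214). The interaction was -0.64 ± 0.11 (adjusted p = 0.222), -0.56 without the pituitary-rich libraries, and with median-of-ratios scaling it passed the test (-0.71, adjusted p = 0.0409). Lag3, an inhibitory receptor, crossed over: it stood at 375, 399.9 and 301 TPM in WT PBS and 549, 458 and 609 TPM in KO PBS, and at 509.9, 489, 429.9 and 452 TPM in WT LPS and 391, 288, 227 and 290.3 TPM in KO LPS. KO was above WT in PBS and below it in LPS, without overlap, while neither difference was called (adjusted p = 0.128 and 0.0714), and the interaction was -1.26 ± 0.23 (adjusted p = 0.222; -1.02 without the pituitary-rich libraries). P2ry13, a receptor for ADP, stood at 1214, 1129.7 and 1099.8 TPM in WT PBS and 1647, 1675 and 1699.7 TPM in KO PBS, with means of 804 and 675 TPM under LPS (interaction -0.79 ± 0.17; -0.78 without the pituitary-rich libraries). Adora3, an adenosine receptor, had an interaction of -0.70 ± 0.15.

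Tmem119, Fcrls, Cst3 and Fscn1 were called lower in KO under LPS. Other homeostatic genes were not lower there, such as Gas6 (KO minus WT of 0.30), Mef2a (0.22) and Ltc4s (0.21), and the list median was -0.19. Tmem119, whose allele also carries the Cre, stood at 3726, 3766 and 2911 TPM in WT PBS, 2176, 2002 and 2164 TPM in KO PBS, 1872, 1783, 1669.7 and 1608 TPM in WT LPS and 764, 794, 801 and 1016 TPM in KO LPS. KO was lower without overlap in both treatments, by called differences of -0.70 and -1.04, and the interaction of -0.34 ± 0.18 did not pass the test (adjusted p = 0.574). Fcrls, a microglial scavenger receptor, was level under PBS (2522 and 2544 TPM) and called lower in KO under LPS (1814 and 1082 TPM, difference -0.75 ± 0.13; adjusted p = 0.0627 without the pituitary-rich libraries), with an interaction of -0.77 ± 0.20 (-0.57). Cst3, the secreted protease inhibitor cystatin C, was called lower in KO under LPS by -1.13 and had an interaction of -0.52 ± 0.29. Fscn1, an actin-bundling protein, averaged 367 and 392 TPM under PBS and 219.7 and 146 TPM under LPS (difference -0.57 ± 0.11, called; interaction -0.67 ± 0.17). The ADP receptor P2ry12 (-0.47 ± 0.28) and the fractalkine receptor Cx3cr1 (-0.51 ± 0.27) lay below 0 without a call in any comparison of genotypes.

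Rapgef5, Cyth4, Ehd4 and Pla2g4a were among the genes with the smallest interaction p below 0. Rapgef5, which activates Rap GTPases, stood at 54.3, 54.3 and 55.7 TPM in WT PBS and 99.1, 96.8 and 85.2 TPM in KO PBS, a called difference of 0.76 ± 0.10 that was also called without the pituitary-rich libraries. It averaged 54.7 and 58.3 TPM under LPS, with overlap, and its interaction was -0.66 ± 0.13 (adjusted p = 0.222). Cyth4, which activates Arf GTPases, averaged 357, 442, 335 and 285 TPM in the 4 groups, with higher values in KO under PBS and lower values in KO under LPS and no overlap in either (interaction -0.54 ± 0.10). Ehd4, an endocytic protein, was called lower in KO under LPS (-0.45 ± 0.07; adjusted p = 0.0627 without the pituitary-rich libraries) and had an interaction of -0.60 ± 0.11. Pla2g4a, the phospholipase that releases arachidonic acid, had an interaction of -0.86 ± 0.17 with means of 35.2, 49.3, 54.7 and 41.5 TPM. Apobec3, which restricts retroviruses and which LPS raised, had a smaller response in KO (-0.43 ± 0.12), and Susd3 (-0.49 ± 0.13), the Nogo receptor relative Rtn4rl1 (-0.64 ± 0.24) and Cxxc5 (-0.44 ± 0.17), which LPS lowered, had larger falls in KO. P2rx4, an ATP-gated channel of microglia, lay at -0.39 ± 0.17.

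Lysosomal and phagocytic lists lay below 0 to an extent that depended on the pituitary-rich libraries. Over all genes, 3.67% were at an unadjusted p under 0.05 below 0, and 2.32% without the pituitary-rich libraries. In the lysosome list, 55 of 73 genes lay below 0 with 19 at an unadjusted p under 0.05 in that direction, and without the pituitary-rich libraries 51 of 73 did with 3 (median -0.18 and -0.08). In the complement list, 13 of 18 lay below 0, with 6 and then 0 at an unadjusted p under 0.05 (median -0.37 and -0.22). The disease-associated list had 8 and then 2 of 25 genes in that range (median -0.32 and -0.18), and the unfolded protein response list 8 and then 1 of 24 (median -0.26 and -0.16). Ctsd, the protease cathepsin D, averaged 5249 and 4019.6 TPM under PBS and 4761 and 2358 TPM under LPS, where the difference of -1.01 ± 0.15 was called (adjusted p = 0.0575 without the pituitary-rich libraries); its interaction was -0.63 ± 0.23 (-0.46). Hexa, a subunit of beta-hexosaminidase, had an interaction of -0.60 ± 0.16 (-0.49), and Atp6v0a2, a subunit of the proton pump, one of -0.51 ± 0.13 (-0.50). The cathepsin genes Ctsz (-0.65 ± 0.21; -0.48) and Ctsl (-0.53 ± 0.19; -0.31) lay on the same side. Nagpa, which finishes the tag that sends enzymes to lysosomes, was called higher in KO under PBS (0.58; adjusted p = 0.0933 without the pituitary-rich libraries) and was level under LPS (0.06). The high-affinity IgG receptor Fcgr1 had an interaction of -0.71 ± 0.16 (-0.65), its signalling chain Fcer1g one of -0.48 ± 0.22 (-0.32), the NADPH oxidase subunit Cyba one of -0.37 ± 0.16 (-0.29), the anaphylatoxin receptor C5ar1 one of -0.73 ± 0.31 (-0.47), and the endoplasmic reticulum chaperones Hspa5, Calr and Canx ones of -0.58 ± 0.18 (-0.51), -0.44 ± 0.16 (-0.40) and -0.34 ± 0.13 (-0.27). Cd55, which shields cells from complement, was the exception above 0 among these named genes (0.71 ± 0.30; 0.88).

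**Figure D4:**
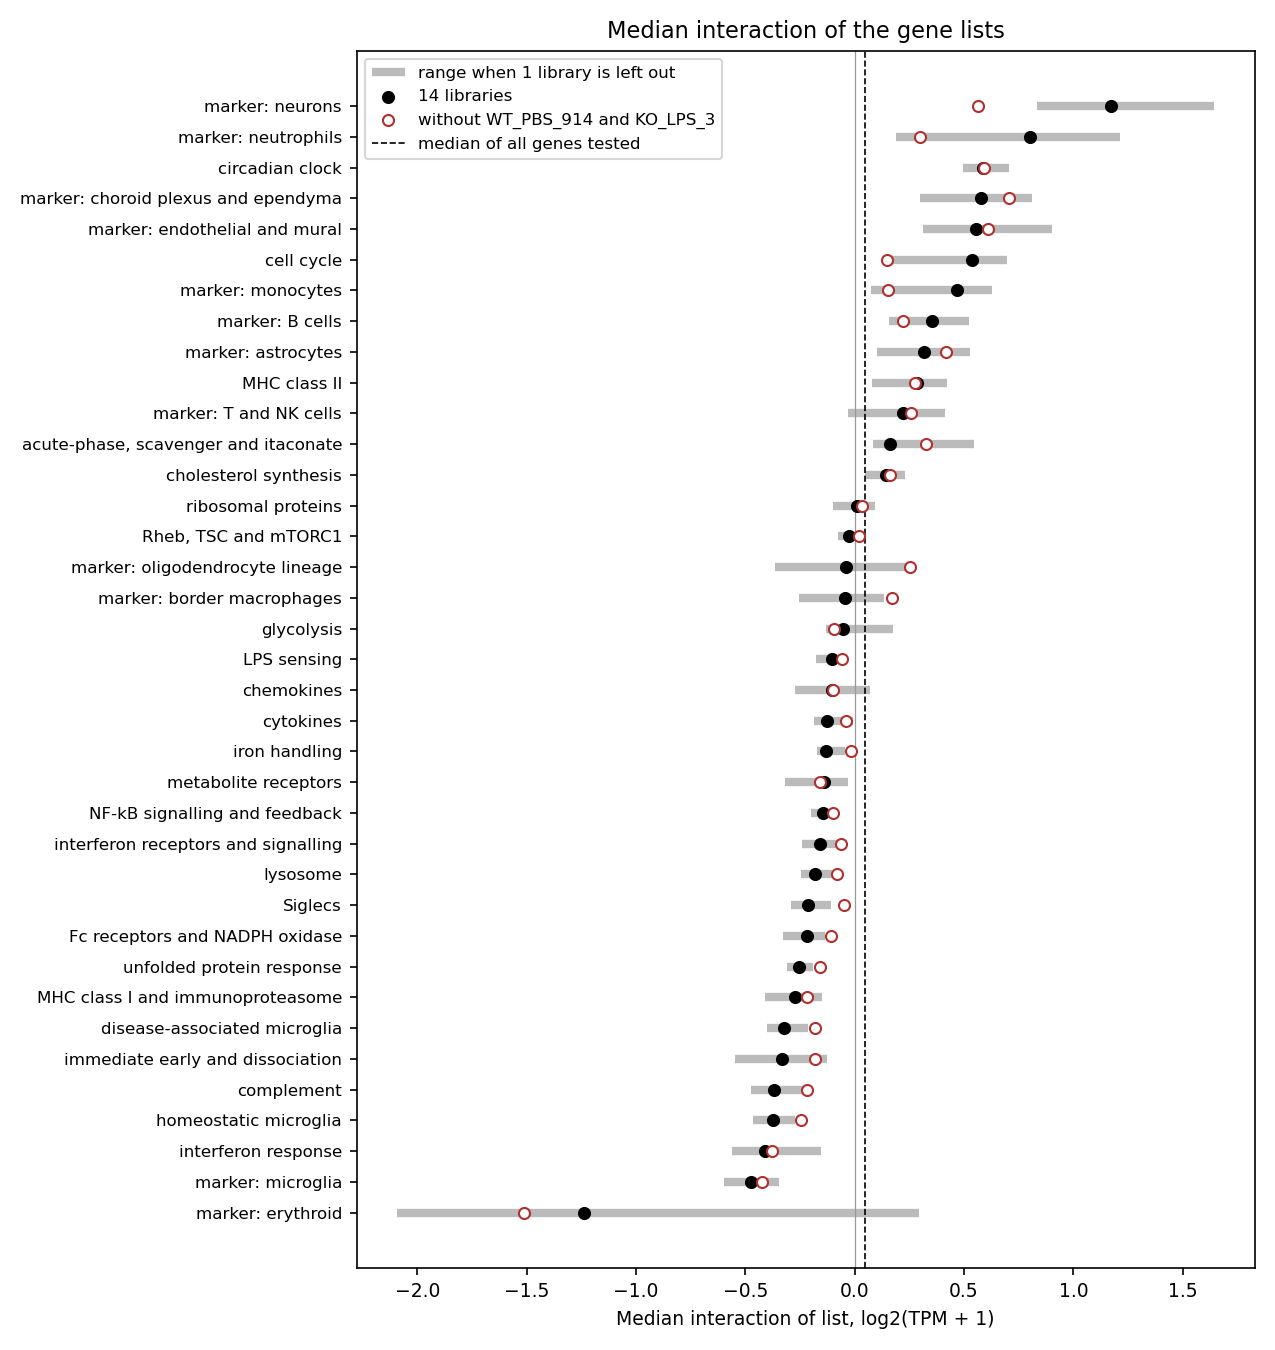
Median interaction of each list (black points), the same without the 2 pituitary-rich libraries (open red points) and the range when any 1 library is left out (grey bars), in log2(TPM + 1); the pituitary markers are left out of the plot. The dashed line is the median of all genes tested; the interferon, homeostatic and microglial marker lists lie to its left and the clock list to its right under every setting drawn.

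Several responses that were larger in KO started from a lower PBS level. Smpdl3a, a phosphodiesterase gene, stood at 114, 105 and 115 TPM in WT PBS and 79.2, 80.2 and 71.2 TPM in KO PBS, and at 178, 199, 195 and 185 TPM in WT LPS and 186, 198, 187 and 172 TPM in KO LPS. The PBS groups were apart and the LPS groups overlapped. The PBS difference of -0.53 ± 0.08 was called (adjusted p = 0.00995; 0.0756 without the pituitary-rich libraries), and the interaction was 0.50 ± 0.10 (adjusted p = 0.224), 0.47 without the pituitary-rich libraries. Nr1h3, which encodes the nuclear receptor LXR alpha, averaged 6.94, 4.49, 30.2 and 34.7 TPM, an interaction of 0.74 ± 0.22. Adgre5, the adhesion receptor CD97 of leukocytes, stood at 54.98, 61.9 and 64.8 TPM in WT PBS and 20.02, 33.6 and 44.6 TPM in KO PBS, without overlap, and at 92.9, 105, 113 and 114 TPM in WT LPS and 134, 123, 114 and 121 TPM in KO LPS. Its PBS difference of -0.93 ± 0.20 was called but in only 9 of 29 alternatives, and its interaction was 1.15 ± 0.27 (1.13). Tmem51, a membrane protein gene, had a called PBS difference of -0.85 (12 of 29 alternatives) and an interaction of 0.99 ± 0.23. Arhgef10l, an exchange factor for small GTPases, stood at 24.9, 24.7 and 21.3 TPM in WT PBS and 13.7, 14.5 and 11.8 TPM in KO PBS (difference -0.78 ± 0.13, called), and averaged 24.2 and 24.4 TPM under LPS (interaction 0.80 ± 0.17; 0.85). Other genes that LPS raised more in KO were the actin-binding Cnn2 (0.80 ± 0.24; 0.66), the sphingosine phosphate receptor S1pr5 (1.07 ± 0.33; 1.06) and the GTPase Rras (0.64 ± 0.20; 0.76), none of them called. Cystm1 (1.37 ± 0.27), the kinase Cdc42bpg (1.24 ± 0.27) and Megf9 (0.74 ± 0.17) completed the genes with the smallest p above 0.

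Fam183b and Cfap298, genes of cilia, and the marker lists of choroid plexus and ependyma and of neurons had interactions above 0. Fam183b, a gene of ciliated cells, stood at 139, 111 and 111 TPM in WT PBS and 53.9, 84.7 and 103 TPM in KO PBS, then at 17.4, 23.6, 18.1 and 27.2 TPM in WT LPS and 53.5, 39.8, 77.9 and 29.3 TPM in KO LPS, where all KO libraries lay above all WT libraries. Its interaction was 1.73 ± 0.41 (adjusted p = 0.368; 1.54 without the pituitary-rich libraries). Cfap298, which ciliary motility needs, averaged 17.2, 13.3, 4.57 and 7.33 TPM (0.93 ± 0.18). Cdkl2, a protein kinase, had an interaction of 1.56 ± 0.31, Dnajc6, which uncoats clathrin vesicles in neurons, 1.52 ± 0.37, and the phosphatase Dusp14 1.60 ± 0.40. Pgpep1l (1.79 ± 0.46) and the formin Fhod3 (1.28 ± 0.33) belonged to the same class of smaller falls in KO. All 10 choroid plexus and ependyma markers, Foxj1 of ciliated cells among them, lay above 0 (median 0.58; 0.71 without the pituitary-rich libraries). Their summed level was 16722 to 22195 TPM in WT PBS, 11382 to 26186 in KO PBS, 2389 to 8934 in WT LPS and 4061 to 14744 in KO LPS, and no member was at 0 in all libraries. The 5 neuronal markers tested also lay above 0, and without the pituitary-rich libraries their median went from 1.17 to 0.56; their sum was 25.8 to 87.7, 14.1 to 22.8, 9.12 to 15.8 and 11.1 to 59.1 TPM in the same order of groups. Snap25, a synaptic vesicle fusion protein, had an interaction of 2.28 ± 1.16 (0.39), and the microtubule protein Map2 one of 1.41 ± 0.47 (0.98). Neuronal Rbfox3, Slc17a7 and Gad1 stayed below 1 TPM in every library. The part of such cells in these responses was not tested.

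Markers of blood and vessel cells differed in direction. Of 15 neutrophil markers, 14 lay above 0, beside 55.7% of all genes. Their median of 0.80 was 0.30 without the pituitary-rich libraries and 0.19 without WT_PBS_914 alone. The sum of these markers ran from 6412 to 24669.8 TPM in WT PBS, 6185 to 9145 in KO PBS, 10373 to 23527 in WT LPS and 12714 to 26328 in KO LPS. Ngp, a granule protein of immature neutrophils, averaged 1594, 867, 939.5 and 1822 TPM (interaction 1.52 ± 0.69; 0.94 without the pituitary-rich libraries). Ltf, lactoferrin, had an interaction of 1.57 ± 0.68 (1.03). Csf3r, the receptor for G-CSF, was the 1 marker of this list below 0 (-0.57 ± 0.14). For monocyte markers 10 of 12 lay above 0 (median 0.47; 0.15; sums of 438 to 1235, 345 to 547, 1646 to 3159 and 1613 to 2279 TPM), and for endothelial and mural markers 17 of 18 (median 0.55; 0.61; sums of 2088 to 3764, 1280.4 to 2402, 1355 to 3429 and 964 to 2829 TPM). Tagln of smooth muscle (0.96 ± 0.35; 1.20) and Pecam1 of endothelium (0.86 ± 0.45; 0.97) are examples. Without WT_PBS_914 alone the monocyte median was 0.08, and without KO_LPS_1 that of natural killer and T cell markers was -0.03. Natural killer and T cell markers had a median of 0.22 (0.26), B cell markers 0.35 (0.22), border macrophage markers -0.04 (0.17), astrocyte markers 0.32 (0.42) and oligodendrocyte lineage markers -0.04 (0.25). Cd3e and Klrb1c of T and natural killer cells and Ms4a1 of B cells stayed below 1 TPM in every library. The 4 haemoglobin genes were the erythroid markers tested, with a median of -1.24 (-1.51), which turned to 0.30 without WT_LPS_4. The 9 pituitary markers tested all lay above 0, with a median of 5.69. The part of these cells in the interaction was not tested. Of the cell cycle genes, 30 of 39 lay above 0, beside 55.7% of all genes, with a median of 0.54, which became 0.15 without the pituitary-rich libraries. Kif11, a mitotic kinesin, had an interaction of 1.02 ± 0.36 (0.81), and Ccnd2, cyclin D2, one of 1.29 ± 0.30 (0.91). Stmn1, a microtubule regulator of dividing cells, lay at 0.65 ± 0.19 (0.50).

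The circadian clock genes lay above 0 as a list. Of 18 genes, 17 lay above 0, beside 55.7% of all genes, with 7 at an unadjusted p under 0.05 in that direction (5.87% of all genes) and 1 in the other, and none passed the test. The median was 0.59 both with and without the pituitary-rich libraries, and 0.49 to 0.70 when any 1 library was left out. The median KO minus WT difference was -0.50 under PBS and -0.04 under LPS. Relative to WT PBS, the list stood at -0.54, -0.44 and -0.66 in the KO PBS libraries, below every other library, and at -0.10, 0.27, -0.09 and 0.20 in WT LPS and 0.22, -0.22, 0.24 and -0.18 in KO LPS libraries. The clock runs on Clock and Arntl, which drive Per and Cry genes, their repressors, and the output factors Dbp, Tef and Hlf through a DNA element called the E-box. These genes were picked from the list for their textbook roles, outside the naming rule. The drivers Clock (0.03 ± 0.15) and Arntl (0.17 ± 0.28) had small interactions. Among the driven genes the interaction was 0.98 ± 0.31 for Dbp, 0.83 ± 0.25 for Tef, 0.94 ± 0.31 for Per2, 0.86 ± 0.42 for Per3, 0.93 ± 0.50 for Nr1d1 and 0.76 ± 0.21 for Cry2, while Per1 (0.16 ± 0.24) and Cry1 (0.12 ± 0.34) were no larger than Arntl. Hlf stood at 23.6, 23.9 and 21.5 TPM in WT PBS and 8.097, 10.3 and 5.14 TPM in KO PBS, then at 7.31, 10.8, 6.68 and 8.301 TPM in WT LPS and 8.69, 4.25, 11.4 and 5.91 TPM in KO LPS. Hlf was thus low in KO PBS and in all LPS libraries; its PBS difference of -1.48 ± 0.30 was called (adjusted p = 0.0423; 0.0933 without the pituitary-rich libraries), and its interaction was 1.31 ± 0.39. Bhlhe40, a repressor in the clock that LPS raised (average effect 1.51), was called lower in KO under PBS by -0.77 (10 of 29 alternatives) and level under LPS (-0.00). Its relative Bhlhe41, also a microglial gene, was the exception below 0 (-0.83 ± 0.18), with KO above WT under PBS (72.1, 80.99 and 71.1 against 59.8, 55.3 and 53.4 TPM) and at or below it under LPS (62.7, 54.1, 77.7 and 77.6 against 103, 95.9, 87.5 and 77.6 TPM). The E-box letters CACGTG, a motif added after the values were seen, occurred in 5 of 16 clock promoters with a RefSeq entry (31.2%) and in 6.86% of all promoters of that length.

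**Figure D5:**
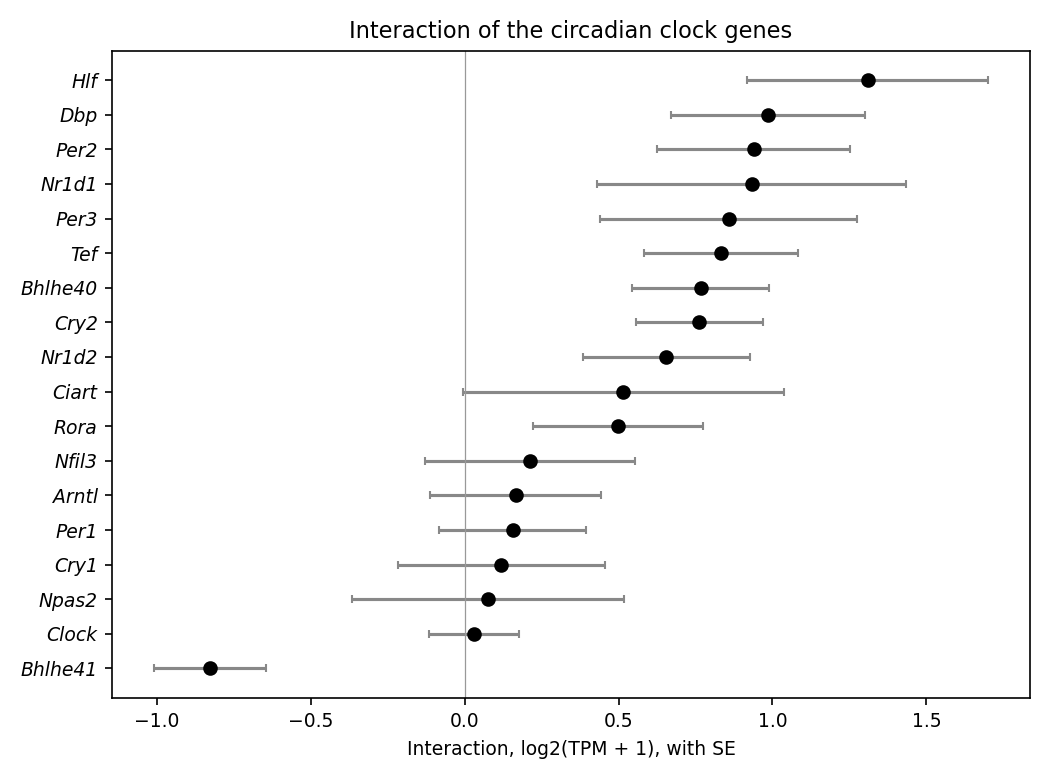
Interaction of each of the 18 clock genes in log2(TPM + 1), with bars of 1 SE from limma. Hlf, Dbp, Per2 and Nr1d1 lie at the right, Clock and Arntl near 0, and Bhlhe41 alone lies left of 0.

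Some genotype differences were present in both treatments and left little interaction. Rheb mRNA itself stood at 29.7, 32.2 and 34.5 TPM in WT PBS, 16.6, 19.02 and 19.1 TPM in KO PBS, 31.8, 32.5, 33.6 and 25.1 TPM in WT LPS and 25.5, 22.9, 23.1 and 19.5 TPM in KO LPS. KO was lower in both treatments, with overlap of the groups under LPS and none under PBS, by -0.79 ± 0.12 (adjusted p = 0.0163) and -0.42 ± 0.11 (adjusted p = 0.1095), and the interaction was 0.37 ± 0.16 (adjusted p = 0.514). The 43 genes of the Rheb, TSC and mTORC1 list had a median of -0.02, with 20 above 0. Without the pituitary-rich libraries this median turned to 0.02. In this list 3 of 43 genes lay at an unadjusted p under 0.05, all above 0, beside 5.87% of all genes in that direction. They were Rheb, the deleted gene itself, the GTPase gene Rragd (1.04 ± 0.44) and the stress sensor Sesn3 (0.95 ± 0.43). None lay there without the pituitary-rich libraries. Ribosomal protein genes, whose translation mTORC1 controls, were higher in KO by a median of 0.61 under PBS and 0.59 under LPS, and their median interaction was 0.01 (75 genes, 41 above 0), which turned to -0.06 with median-of-ratios scaling, a setting that keeps the higher level in KO (0.59 and 0.49). Rpl10a, for example, differed by 0.70 (called) and 0.45 (adjusted p = 0.0571), with an interaction of -0.24 ± 0.14.

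Among antigen presentation and Siglec genes, H2-Ob, H2-DMa and Cd22 differed between genotypes in both treatments, and Siglecf and Tap2 were called under PBS only. H2-Ob, a modulator of MHC class II loading, was called lower in KO under PBS (-1.30 ± 0.13) and under LPS (-0.89 ± 0.11), in 29 of 29 alternatives each, and its interaction was 0.41 ± 0.17 (adjusted p = 0.496). H2-DMa, which helps to load class II molecules, was called higher in both (0.89 and 0.64; interaction -0.25 ± 0.17). Cd22, an inhibitory Siglec, averaged 4.46 and 1.18 TPM under PBS and 15.7 and 5.09 TPM under LPS, with called differences of -1.33 and -1.50 and an interaction of -0.16 ± 0.26 that changed sign with a pseudocount of 0.1. Siglecf, a receptor for sialic acid, averaged 27.9 and 69.5 TPM, then 42.6 and 71.2 TPM; the PBS difference of 1.30 was called, that of 0.70 under LPS was not (adjusted p = 0.0716), and the interaction was -0.60 ± 0.24 (adjusted p = 0.495; -0.37). In the MHC class I and immunoproteasome list 19 of 20 genes lay below 0, beside 44.3% of all genes (median -0.27, -0.22 without the pituitary-rich libraries, -0.15 without WT_LPS_3). The list's median KO minus WT difference was 0.04 under PBS and -0.20 under LPS. The peptide transporter subunit Tap2 was called higher in KO under PBS by 0.47 and was level under LPS (0.03). Cholesterol synthesis genes lay above 0 in 20 of 22 cases, beside 55.7% of all genes, with a small median (0.14). The remaining lists had these medians: iron handling at -0.13, glycolysis at -0.05, MHC class II at 0.28, Siglecs at -0.21, metabolite receptors at -0.14 and Fc receptors and NADPH oxidase at -0.22. The glycolysis median changed sign under 5 alternatives, among them the one without WT_LPS_3 (0.17).

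Very short RNAs had some large interactions. Mir1938 was listed at 0 TPM in all 3 WT PBS libraries and at 47.1, 34.6 and 21.6 TPM in KO PBS, at 13.3, 6.14, 9.21 and 6.23 TPM in WT LPS and at 13.9, 1.66, 17.7 and 12.5 TPM in KO LPS libraries. Its interaction was -4.98 ± 0.77 (adjusted p = 0.1797), and its PBS difference was called in 28 of 28 alternatives. Its mature form, shown because it is the product that would act, with the seed (bases 2 to 8) in capitals, is, per RefSeq (GRCm38.p6, chr12:40222782-40222803, minus strand), as follows. These libraries were not made for short RNAs, so the reads need not come from the mature form.
mmu-miR-1938: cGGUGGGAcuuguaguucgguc

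Snord23, a small nucleolar RNA, was likewise at 0 TPM in WT PBS and at 7.52, 8.47 and 3.296 TPM in KO PBS, with an interaction of -2.63 ± 0.53. Mir3093 showed the reverse, at 10.1, 10.9 and 2.18 TPM in WT PBS and in no KO PBS library, with an interaction of 3.01 ± 0.71; all but 1 library of each LPS group were at 0. A TPM per short length rests on few reads, and without the pituitary-rich libraries the interactions were -5.28 for Mir1938, -2.71 for Snord23 and 3.76 for Mir3093.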

How the data were processed

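The deposited table holds TPM values for 41739 mouse gene IDs in 14 libraries, made by the authors from bulk RNA-seq; per the submitters' processing notes the tools included STAR 2.7.10b and featureCounts 2.0.1, beside FastQC 0.11.9 and cutadapt 4.4. Build hg38 is listed there although the IDs are of mouse, so the build used is unclear, and no position was taken from the table. Each column of the authors' TPM sums to 1000000, so a rise in a few abundant RNAs lowers all others. Symbols were found for 41588 IDs and not for 151. The low TPM values are whole multiples of 1 read within 0.02 reads for 98.40 to 98.55% of values, which gave the depth of each library.

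From the TPM values, log2(TPM + 1) of the 18105 autosomal genes with at least 1 TPM in at least 3 libraries was modelled as 4 group means (limma 3.58.1, R 4.3.3). The variance prior followed an intensity trend, 10 residual degrees of freedom were left, and p-values were adjusted by Benjamini and Hochberg over all 18105 genes. All tests were two-sided, values after ± are standard errors unless SD is named, and called means an adjusted p under 0.05. The labels do not say that each library is a separate animal, so p-values measure the spread between these libraries. Genes were named by rule: the 12 smallest interaction p in each direction among genes with symbols whose highest group mean reached 5 TPM, up to 4 members of each of 38 lists, the 8 smallest p in each class of LPS response, and a fixed set of known genes. Not all genes this rule picks are printed. The genes, lists and tests were chosen with earlier results of these data known, so no list's direction is independent support. An LPS response means a called average LPS effect of at least 1 on the log2 scale. Genes with near-identical copies (ribosomal proteins, histocompatibility, interferon-induced families, haemoglobins) may share reads, and strand use in counting is not given in the sources used here. Alternatives changed the pseudocount, filter, scaling, variance model, gene set and libraries; voom on recovered reads was chosen after seeing the data. The fit was tested on simulated data with 200 changed genes and independent normal errors. It called 47% of interactions of size 1 on the log2 scale and 88% of those of size 2, with 4 false calls. Interactions of size 1 can therefore be missed.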

Additional observations from a re-analysis of the deposited data

Results flagged for a closer look

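In groups of 4 libraries, a gene was marked where its highest or lowest library lay apart from the other 3 by more than Dixon's 95% critical share of the group's range. Of 246 pairs of a printed gene and an LPS group, 26 (10.6%) were marked, where chance marks about 1 in 20, and genes of a shared response are not independent. Of these, 12 were in WT_LPS_3 as the highest WT LPS library, with 113 TPM of Igtp, 215 TPM of Phf11b, 164 TPM of Myd88, 139.9 TPM of Il12b, 778 TPM of Cxcl10, 353 TPM of Gpr84, 1.32 TPM of Tagln, 14.6 TPM of Il6, 749 TPM of Ccl2, 129.9 TPM of Stat2, 209 TPM of Irf7 and 750.5 TPM of Acod1. KO_LPS_1 was the highest KO LPS library with 24.2 TPM of Megf9, 458 TPM of Il1a, 27.1 TPM of Il12b, 972 TPM of Ccl4, 104 TPM of Cxcl10 and 237 TPM of Acod1. Further libraries that were the highest of their group held 1.18 TPM of Mir3093 in WT_LPS_1, 1.91 TPM of Mir3093 in KO_LPS_2, 74.2 TPM of H2-DMa in WT_LPS_2, 811 TPM of Cyba in KO_LPS_2, 16.4 TPM of Snap25 in KO_LPS_3 and 1016 TPM of Tmem119 in KO_LPS_4. The lowest of their group were 416 TPM of Canx in WT_LPS_4 and 82.4 TPM of Rras in WT_LPS_3. WT_LPS_3 and KO_LPS_1 were each the highest of their group for Cxcl10, Il12b and Acod1.

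The interaction itself is a test of whether the LPS response differs between genotypes, and 0 genes passed it in all 14 libraries.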

How the results depend on the processing

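No gene passed the interaction test with the settings of the report, 3 did with a pseudocount of 0.1, 1 with a pseudocount of 5, 1 without the filter on low values, 2 with median-of-ratios scaling, 1 with quantile normalisation, 1 without the intensity trend, 1 with library weights, 1 among genes of at least 200 nt, 4 without both pituitary-rich libraries and 0 to 2 when 1 library was left out. Of these calls, only Hcar2 recurred in 6 settings; the others were Nrros and short or unnamed RNAs. KO minus WT calls under PBS were 198, and 91 without the filter, 129 with median-of-ratios scaling, 406 with quantile normalisation, 64 without the trend, 1002 with library weights, 17 without both pituitary-rich libraries and 4 to 280 with 1 library left out, where leaving out any PBS library, KO_LPS_1, KO_LPS_3, WT_LPS_1 or WT_LPS_2 lowered the count by more than 1.5 times. Under LPS there were 87 calls, and 31 without the filter, 168 with median-of-ratios scaling, 203 with quantile normalisation, 166 after rescaling without abundant genes, 45 without the trend, 162 with library weights, 236 with voom, 10 without both pituitary-rich libraries and 16 to 98 with 1 library left out, 16 of them without KO_LPS_3. Leaving out WT_PBS_913, any KO PBS library, KO_LPS_2, KO_LPS_3 or any WT LPS library also lowered this count by more than 1.5 times. LPS minus PBS calls in KO fell from 6323 to 4127 with median-of-ratios scaling and 4045 with voom; those in WT stayed within 1.5 times of 7596. The average LPS effect had 2010 higher and 7775 lower genes, 3766 and 3530 with median-of-ratios scaling, and 3704 and 3664 with voom, and the share of all genes above 0 in the interaction moved from 55.7% to 47.8% and 49.9%. Of 123 printed genes, 119 kept the sign of their interaction in every alternative run. The exceptions were Cd22 (0.19 with a pseudocount of 0.1 and 0.14 with voom), Saa3 (0.40 with a pseudocount of 0.1, 0.66 with voom, -0.56 to 0.083 with 1 library left out), Lcn2 (-0.094 without both pituitary-rich libraries, -0.15 to 0.92 with 1 left out) and Acod1 (-0.79 to 0.45 with 1 left out). Of 38 lists, 30 kept the sign of their median. The cause of these shifts was not tested, beyond the smaller number of libraries or genes that some settings use.

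The WT and KO LPS libraries share the numbers 1 to 4. Over all genes tested, libraries of the same number did not deviate together (correlations of 0.06, -0.06, -0.08 and -0.03). Such correlations also carry what sets single libraries apart, such as the pituitary transcripts of KO_LPS_3. They therefore cannot show whether the numbers pair the libraries. A replicate block gave 0 interaction calls, 49 KO minus WT calls under PBS and 23 under LPS, and the PBS libraries share no numbers. Depth limits genes of a few TPM most in KO_LPS_4, with 7.998 M reads.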
